A study of Mus musculus with 2 samples.

Results

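The genes described are 47 protein-coding genes of DNA replication and nucleotide synthesis, chosen by name from a list of 47 symbols, all of which the NCBIM37 (mm9) annotation holds, out of 22350 protein-coding genes on the autosomes and X. They comprise the origin recognition and licensing factors, the proteins that switch on the replicative helicase, the DNA polymerases and primase, the sliding clamp with its loader and partners, and enzymes that make deoxynucleotides. The anti-FLAG library and the IgG library both come from 3T3 fibroblasts of mouse embryo origin that are Ccnd1-/-, so that they lack their own cyclin D1, and carry FLAG-tagged cyclin D1 from an MSCV retroviral vector, which places the tagged protein under a viral promoter. The labels describe the cells both as stably transfected and as transduced, and whether they are 1 clone is not given in the sources used here. Both samples were untreated, and they differ in the antibody used on the fixed, sheared chromatin, monoclonal M2 against FLAG or normal mouse IgG1, the background control. Chromatin immunoprecipitation sequencing (ChIP-seq) gives short tags where precipitated DNA fragments began, and a surplus of anti-FLAG over IgG tags says that a stretch was recovered more often with the antibody to the tag. The surplus also followed base composition, as given further on, and no library from cells without the tagged protein was analysed here. The libraries held 9255188 anti-FLAG and 9308877 IgG tags on the autosomes and X. There was 1 library per antibody, so no difference has a replicate check, every interval and p covers counting error only, and every test compares these libraries rather than the antibodies in general. In introns 1 to 3 of Ccnd1, a check of the genotype, 2 anti-FLAG and 2 IgG tags were found where 17.4 and 17.5 were expected from the genome-wide means. Its exons, 3740 bp with their untranslated parts, held 43 anti-FLAG and 13 IgG tags. The tagged copy also carries the coding part of these exons, and whether it holds the untranslated parts was not checked.

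Replication is prepared in G1, when the origin recognition complex together with Cdc6 and Cdt1 loads the Mcm2 to Mcm7 helicase onto origins, and it starts in S phase, when the kinase Cdc7, Mcm10, Cdc45 and the GINS complex turn that helicase on. Cyclin D1 activates CDK4 and CDK6, which phosphorylate the retinoblastoma protein and free E2F factors, and E2F factors are known to drive transcription of many genes of this set at the G1 to S transition. Cyclin D1 itself does not bind DNA in a sequence-specific way and is known to reach chromatin through other proteins.

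The letters of the promoters are shown because the choice of genes did not use them, and some short words were more frequent in the set than in promoters at large. The window searched ran from 250 bases before to 50 bases after the annotated transcription start site (TSS), on both strands. An E2F word (TTTCCCGC, TTTGGCGC, TTTCGCGC or TTTGCCGC) was found at 14 of the 47 genes, 29.8%, against 2.72% of 22345 protein-coding promoters of the same length and 4.01% of those with enough tags to be tested within 1 kb, to which all 47 belong. Of the 15 origin recognition and licensing genes 9 held one, and 26 bases around the match nearest the TSS are given for each, on build NCBIM37, 5′ to 3′ along the gene, with the word or its reverse complement in capitals.
Orc1, chr4:108252023-108252048, plus strand: cggttagtgGCGCGAAAagttttctc
Orc3, chr4:34562216-34562241, minus strand: atgcctcccTTTCCCGCacgccccgc
Cdc6, chr11:98769146-98769171, plus strand: tagagcggcTTTGGCGCgagttgact
Cdt1, chr8:125091938-125091963, plus strand: aactaccttTTTGGCGCcatggcgca
Gmnn, chr13:24854019-24854044, minus strand: attctcgtgTTTGCCGCtagtgagag
Mcm3, chr1:20810339-20810364, minus strand: ttgggaagtTTTGGCGCcaaggcggt
Mcm4, chr16:15637555-15637580, minus strand: ctacacgccTTTGCCGCtgtgattgg
Mcm5, chr8:77633451-77633476, plus strand: aggctggttTTTCCCGCgaaagtcgg
Mcm6, chr1:130256313-130256338, minus strand: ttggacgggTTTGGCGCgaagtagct
The remaining matches were in 1 of 7 helicase activation genes, 3 of 9 polymerase and primase genes, 1 of 11 clamp, loader, single-strand binding and Okazaki fragment genes and 0 of 5 nucleotide synthesis genes. The word CCAAT, which NF-Y binds, was at 61.7% of the 47 promoters, against 37.9% of all and 39.2% of tested ones. GGGCGG, which Sp1 binds, was at 70.2%, against 43.5% of all and 58.0% of tested ones. CACGTG, the E-box of Myc, was at 17.0%, against 7.79% of all and 9.91% of tested ones. The cell cycle homology words TTTGAA and TTCGAA were at 12.8%, against 17.8% of all and 15.7% of tested ones. TGACGTCA, the cyclic AMP response element, was at 4.26%, against 2.33% of all and 3.47% of tested ones. The 47 windows held a median of 22 CG dinucleotides, against 11 over all promoters, and the part of CG content in these shares was not tested. Some E2F words overlap each other, as at Mcm5 and Mcm6, and none of the E2F matches at the 47 genes overlapped a match of another word. These are letters only, and no binding of any factor was measured here.

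The bases just before the TSS are shown next for 6 of the promoters whose anti-FLAG surplus passed the test both within 1 kb and within 500 bp. These 6 were picked as those of highest ratio whose stretch held a searched word. Rrm1 passed at both widths with 2 words in its stretch, but is not shown. Its ratio equalled those of Mcm7 and Gins2 within 1 kb and was below theirs within 500 bp. Prim1 also passed at both widths, but its stretch held no word. Fen1 passed too, with no bases before an annotated untranslated region and no searched word in the whole window searched. Pola1 and Lig1, the promoters of lowest ratio, are shown as well. Capitals mark every searched word inside the stretch, which is 200 bases long or stops at the untranslated region of a neighbouring gene.
Cdt1, chr8:125091715-125091914, plus strand: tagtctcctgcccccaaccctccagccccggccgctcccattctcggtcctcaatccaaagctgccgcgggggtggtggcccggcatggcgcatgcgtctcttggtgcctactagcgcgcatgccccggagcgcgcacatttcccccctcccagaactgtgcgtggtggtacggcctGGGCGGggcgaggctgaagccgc
Orc1, chr4:108251942-108252027, plus strand: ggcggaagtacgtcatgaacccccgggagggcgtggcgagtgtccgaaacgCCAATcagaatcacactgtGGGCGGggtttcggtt
Rpa3, chr6:8209174-8209287, minus strand: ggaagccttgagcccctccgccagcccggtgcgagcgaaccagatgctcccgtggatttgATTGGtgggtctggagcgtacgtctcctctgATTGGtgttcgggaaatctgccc
Gmnn, chr13:24853793-24853992, minus strand: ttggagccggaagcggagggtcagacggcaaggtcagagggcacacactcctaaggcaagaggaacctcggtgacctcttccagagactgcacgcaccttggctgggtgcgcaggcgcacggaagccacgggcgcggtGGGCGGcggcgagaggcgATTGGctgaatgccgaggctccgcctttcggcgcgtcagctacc
Mcm7, chr5:138613651-138613850, minus strand: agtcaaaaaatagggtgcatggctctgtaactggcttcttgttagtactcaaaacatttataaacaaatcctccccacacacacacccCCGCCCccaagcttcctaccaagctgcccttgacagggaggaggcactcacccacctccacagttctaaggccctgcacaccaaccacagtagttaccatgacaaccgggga
Gins2, chr8:123113205-123113404, minus strand: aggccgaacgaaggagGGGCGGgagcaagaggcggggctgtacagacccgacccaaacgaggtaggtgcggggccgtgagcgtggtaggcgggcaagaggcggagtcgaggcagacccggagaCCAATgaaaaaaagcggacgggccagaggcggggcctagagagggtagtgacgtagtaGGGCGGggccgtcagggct
Pola1, chrX:90877495-90877694, minus strand: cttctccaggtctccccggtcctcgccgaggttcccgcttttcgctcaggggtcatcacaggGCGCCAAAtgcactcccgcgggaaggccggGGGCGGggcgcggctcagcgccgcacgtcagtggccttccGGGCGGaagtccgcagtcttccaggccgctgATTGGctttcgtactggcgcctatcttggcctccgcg
Lig1, chr7:13862432-13862631, plus strand: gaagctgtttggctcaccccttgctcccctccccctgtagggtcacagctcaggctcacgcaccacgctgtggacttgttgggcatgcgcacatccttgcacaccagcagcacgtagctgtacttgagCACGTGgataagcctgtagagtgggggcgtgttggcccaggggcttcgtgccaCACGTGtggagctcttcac
Pola1, with an E2F word, 2 GGGCGG words and a CCAAT word in this stretch, stood near the bottom of the set in anti-FLAG surplus, while the stretch of Mcm7 held 1 GGGCGG word and no other. Members with an E2F word had a median log2 ratio of anti-FLAG to IgG tags within 1 kb of 1.13, against 1.01 for those without. Over all tested promoters the medians with and without an E2F word were 1.06 and 0.87.

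Anti-FLAG tags outnumbered IgG tags, scaled to library totals, at 46 of the 47 promoters within 1 kb either side of the TSS. They did so at 17046 of all 22350 protein-coding promoters, with or without enough tags to test. All 47 had at least 20 tags in both libraries together, the minimum for testing, as did 10947 of all 22350 genes. The 47 windows held 9 to 56 anti-FLAG tags with a median of 25, and 4 to 26 IgG tags with a median of 10. In sum they held 1179 anti-FLAG and 534 IgG tags, a ratio of 2.22. The test was the 2-sided exact conditional binomial test with Benjamini-Hochberg adjustment over all tested promoters. By it 18 of the 47 were higher at an adjusted p under 0.05, which is 38.3%, where 29.7% of all tested promoters were higher. No member was lower, at the adjusted threshold or at an unadjusted p under 0.05, as were 0.0913% of all tested promoters at the adjusted one, and 27 members were higher at an unadjusted p under 0.05, as were 43.1% of all tested promoters. At least a 2-fold ratio, with 1 tag added to each count, was reached by 27 members or 57.4%, against a background of 44.3%. The median log2 ratio of the set was 1.06, against 0.88 over all tested promoters and 0.59 over all genes, and 30 of the 47 stood above the median of tested promoters. With a median of 10 IgG tags, most of the 47 reached 20 tags only with their anti-FLAG tags. Shares and medians over tested promoters within 1 kb, here and below, thus rest in part on the tags tested. With no tag minimum 17 of the 47 were higher, against 12.2% of all promoters with any tag. Windows of all genes held fewer tags, with medians of 11 anti-FLAG and 7 IgG tags, so that share is not matched either.

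**Figure D1:**
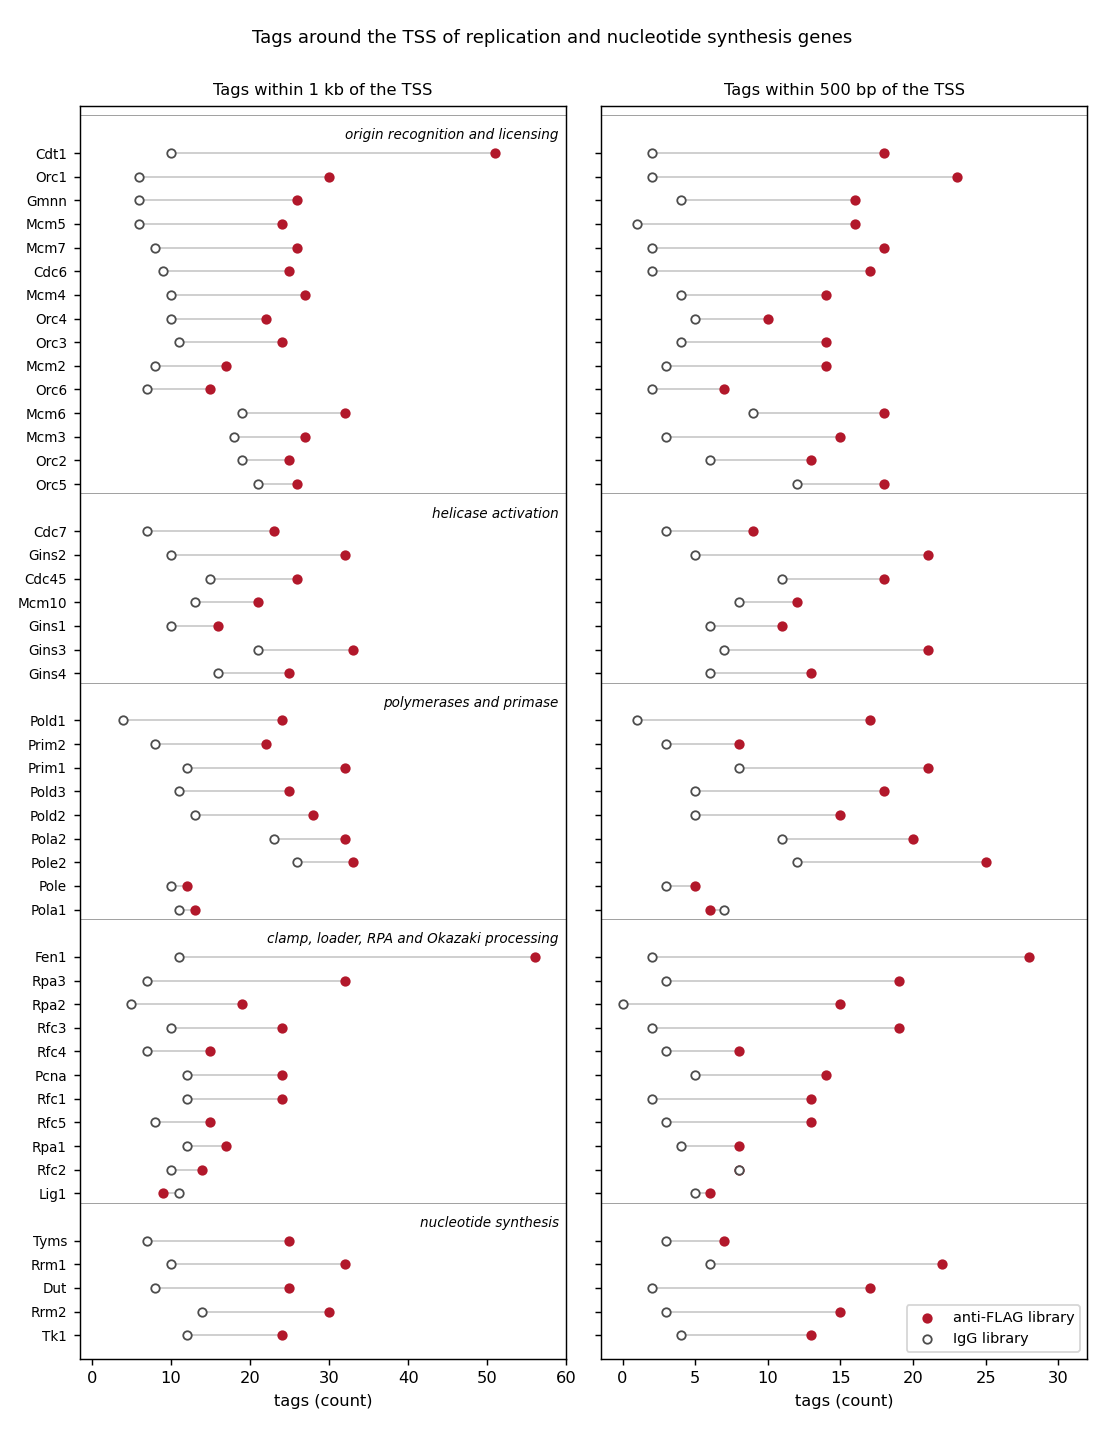
Tags of the anti-FLAG library (filled red) and of the IgG library (open grey) within 1 kb (left) and 500 bp (right) of each TSS, with genes in rows grouped by role and ordered by their ratio within 1 kb. Fen1 with 56 tags and Cdt1 with 51 stand apart on the left panel, and Lig1 is the row where the IgG tags within 1 kb exceed the anti-FLAG tags.

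Within 500 bp of the TSS the surplus was larger, with 696 anti-FLAG and 217 IgG tags over the 47 genes, a ratio of 3.23 (95% exact interval 2.77 to 3.77). Over all 47 members the median log2 ratio was 1.47, against 0.82 over all genes, with no tag minimum for either. Over promoters with at least 20 tags at this width the medians were 1.67 for members and 1.45 for all. At this width 19 members reached 20 tags. Of these 13 were higher, against a background of 62.4%, and 0 lower, against 0.0996%, while 14 were at least 2-fold, against 74.1%. Because IgG counts there did not exceed 12, a promoter reached 20 tags mostly through its anti-FLAG tags. These shares, and the medians over such promoters, are therefore not read as results. Within 2.5 kb all 47 reached it, and 10 were higher, against a background of 10.5%, 0 lower, against 0.148%, and 10 at least 2-fold, against 13.3%. Pold2 and Rrm2 were among these 10 higher promoters, although they did not pass within 1 kb. With a minimum of 10 tags within 500 bp, 45 members were tested and 22 were higher, against a background of 33.3%. Tags within 500 bp came mostly from the anti-FLAG library here too, so this share is not read as a result either. Cdt1, Fen1, Gins2, Gmnn, Mcm7, Orc1, Prim1, Rpa3 and Rrm1 were higher at both widths, Cdc6, Cdc7, Dut, Mcm4, Mcm5, Pold1, Prim2, Rpa2 and Tyms within 1 kb but not within 500 bp, where all 9 had under 20 tags and were not tested, and Gins3, Pold2, Pold3 and Rfc3 within 500 bp but not within 1 kb.

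The surplus lay at the TSS itself, where IgG tags were few. In the 500 bp centred on the TSS the 47 genes together had 376 anti-FLAG and 62 IgG tags, a ratio of 6.10 (95% exact interval 4.65 to 8.11), against 2.99 over all protein-coding genes and 3.81 over those with at least 20 tags within 1 kb. Anti-FLAG density there was 3.26 times that 4 to 5 kb away, while IgG density was 0.596 times its own. Over all protein-coding genes the values were 1.88 for anti-FLAG and 0.697 for IgG tags. Each member had at least 1 anti-FLAG tag in this window, while 17.3% of all genes had 0, but only 2.22% of those with at least 20 tags within 1 kb. Of the 47, 14 or 29.8% had 0 IgG tags, as had 37.4% of all genes and 29.0% of those with at least 20 tags within 1 kb. Per gene and 100 bp, anti-FLAG tags of the set peaked at 2.04 just before the TSS, dropped to 0.936 between 200 and 300 bp after it and stood at 1.64 in the next 100 bp. IgG tags were at 0.170, 0.383 and 0.468 in the same places. Over all genes anti-FLAG tags had 0.946, 0.537 and 0.560 there. Both sides of the TSS contributed, with 583 anti-FLAG against 272 IgG tags in the kb before the TSS and 595 anti-FLAG against 262 IgG tags in the kb after it. Just beyond 2 kb the interval of the ratio included 1, at 0.955 (0.731 to 1.25) from 2.5 to 2 kb upstream and 1.04 (0.822 to 1.32) from 2 to 2.5 kb downstream.

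**Figure D2:**
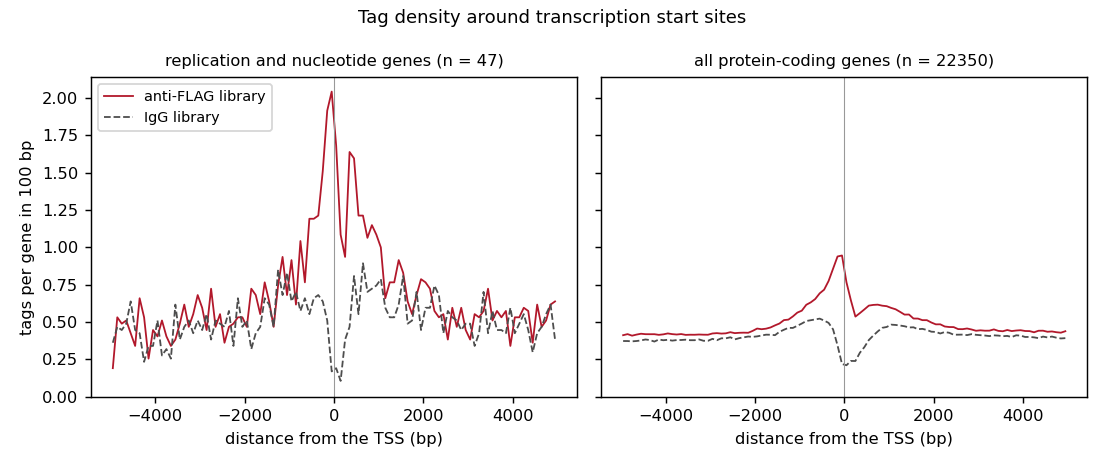
Tags per gene in 100-bp bins against the distance from the TSS in bp, in the direction of transcription, for the 47 genes (left) and for all 22350 protein-coding genes (right), with the anti-FLAG library as a solid red line and the IgG library as a dashed grey line. In the left panel anti-FLAG tags peak at 2.04 per gene just before the TSS, where IgG tags are at 0.170, and a smaller rise follows at 300 to 400 bp.

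Base composition moved with these values: far from any TSS, too, the anti-FLAG library covered GC-rich DNA more fully than the IgG library. In 500-bp windows over 10 kb from every TSS, the ratio scaled to totals was 0.953 at 40 to 42% GC, 1.33 at 50 to 52% and 2.23 at 60 to 62%. The promoters of the set had a median of 50.4% GC within 1 kb, between 43.7 and 58.1%, and were thus less GC-rich than tested promoters in general, at 52.7%. Across the 47 genes GC content and log2 ratio had a Pearson r of 0.43 and a Spearman rho of 0.47, and across the 10947 tested promoters, which include the 47 and share both libraries, 0.46 and 0.42. When the ratio expected from GC content was taken out, the median log2 ratio of the set within 1 kb was 0.73, against 0.51 over all tested promoters. With this correction 45 of the 47 had more anti-FLAG tags than expected from IgG, as had 14439 of all 22350 protein-coding promoters, tested or not. Then Cdt1, Fen1 and Orc1 were higher within 1 kb, 3 of 47 against a background of 2.73%, none was lower, against 0.0274%, and 17 were at least 2-fold, against 21.3%. Within 500 bp the higher ones were Fen1, Mcm7, Orc1 and Rfc3, 4 of 19 against 12.8%, and 10 were at least 2-fold, against 45.4%, shares over the same 19 promoters and so not read as results either. The part of base composition in the surplus of each promoter was not tested beyond this correction. In the 500 bp centred on the TSS the ratio of the sums with GC taken out was 3.28 (2.504 to 4.367), against 1.79 over all protein-coding genes and 2.09 over those with at least 20 tags within 1 kb. The GC content in those 500 bp was 60.6%, 57.2% and 61.2% in the median.

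**Figure D3:**
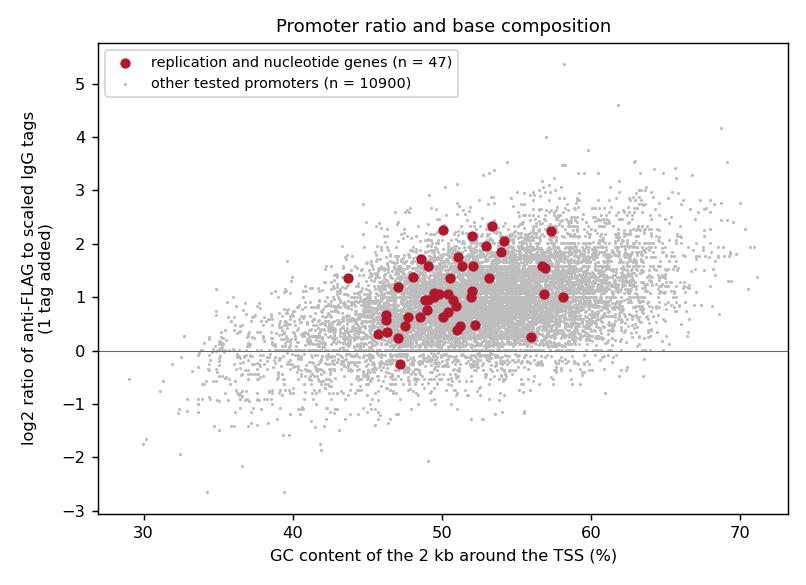
Log2 ratio of anti-FLAG to scaled IgG tags within 1 kb of the TSS, with 1 tag added to each count, against the GC content of the same 2 kb in percent, for the 47 replication and nucleotide synthesis genes (red) and the other tested promoters (grey). The ratio is higher at GC-rich promoters, and the set lies between 43.7 and 58.1% GC.

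Among origin recognition and licensing genes, 7 of 15 were higher within 1 kb, namely Cdt1, Orc1, Gmnn, Mcm5, Mcm7, Cdc6 and Mcm4, and the median log2 ratio was 1.07. For this role and those that follow, the share over all tested promoters was 29.7%, and differences between roles were not tested. In parentheses, here and for the genes that follow, stand the ratio of anti-FLAG to scaled IgG tags, its 95% exact interval and the p of the exact test adjusted over all tested promoters. The gene of the loading factor Cdt1 (ENSMUSG00000006585.2, TSS at 125091915 of chromosome 8) had 51 anti-FLAG against 10 IgG tags (ratio 5.13, 2.58 to 11.3, adjusted exact p = 2.52e-05). Within 500 bp it had 18 anti-FLAG against 2 IgG tags (ratio 9.05, 2.17 to 80.4, adjusted exact p = 0.00129). With the GC correction it was higher within 1 kb (adjusted exact p = 0.0130) but not within 500 bp (adjusted exact p = 0.336). Its densest 300 bp lay downstream, centred 840 bp after the TSS, with 12 anti-FLAG against 2 IgG tags. The gene of the largest origin recognition subunit, Orc1 (ENSMUSG00000028587.11, TSS at 108252028 of chromosome 4), had 30 anti-FLAG against 6 IgG tags within 1 kb (ratio 5.03, 2.06 to 14.8, adjusted exact p = 0.00127) and 23 anti-FLAG against 2 IgG tags within 500 bp (ratio 11.6, 2.86 to 101, adjusted exact p = 1.91e-04). With the GC correction it was higher at both widths, with adjusted exact p = 0.0455 within 1 kb and 0.0148 within 500 bp. The TSS of Prpf38a, a splicing factor gene read in the opposite direction, lies 87 bp upstream of that of Orc1, so the tags cannot be assigned to 1 of these genes.

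Geminin inhibits Cdt1, and its gene Gmnn (ENSMUSG00000006715.4, TSS at 24853792 of chromosome 13) was higher at both widths. It had 26 anti-FLAG against 6 IgG tags within 1 kb (ratio 4.36, 1.75 to 12.9, adjusted exact p = 0.00420) and 16 anti-FLAG against 4 IgG tags within 500 bp (ratio 4.02, 1.30 to 16.5, adjusted exact p = 0.0154). Cdc6, which joins the origin recognition complex before Cdt1, had 25 anti-FLAG against 9 IgG tags (ratio 2.79, 1.26 to 6.80, adjusted exact p = 0.0263) and 17 anti-FLAG against 2 IgG tags within 500 bp. In the 500 bp centred on its TSS it had 15 anti-FLAG against 2 IgG tags, level with the 15 anti-FLAG against 2 IgG tags of Gins3 and below the 19 anti-FLAG against 1 IgG tags of Rrm1, the highest anti-FLAG count there.

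Of the genes of the Mcm2 to Mcm7 ring, 3 of 6 were higher within 1 kb, against 29.7% of all tested promoters. Mcm5 had 24 anti-FLAG against 6 IgG tags within 1 kb (ratio 4.02, 1.60 to 12.0, adjusted exact p = 0.00792) and 16 anti-FLAG against 1 IgG tags within 500 bp, under the tag minimum. Mcm7 had 26 anti-FLAG against 8 IgG tags (ratio 3.27, 1.44 to 8.35, adjusted exact p = 0.0125) and 18 anti-FLAG against 2 IgG tags within 500 bp (ratio 9.05, 2.17 to 80.4, adjusted exact p = 0.00129). With the GC correction Mcm7 did not pass within 1 kb (adjusted exact p = 0.174) and passed within 500 bp (adjusted exact p = 0.0307). Its densest 300 bp were centred 360 bp after the annotated TSS, with 10 anti-FLAG against 0 IgG tags, and the TSS of Ap4m1, an adaptor complex gene read the other way, lies 420 bp after it. Mcm4 had 27 anti-FLAG against 10 IgG tags (ratio 2.72, 1.27 to 6.29, adjusted exact p = 0.0241) and 14 anti-FLAG against 4 IgG tags within 500 bp, and the TSS of Prkdc, the DNA-dependent protein kinase gene, lies 466 bp upstream of its own. The other ring genes did not pass within 1 kb. Within 500 bp Mcm6 did not pass, and Mcm2 and Mcm3 had under 20 tags and were not tested. With a minimum of 10 tags within 500 bp, Mcm2 and Mcm3 were higher and Mcm6 was not. Mcm2 and Mcm3 reached that minimum only with their anti-FLAG tags, so these calls are not read as results. Mcm2 had 17 anti-FLAG against 8 IgG tags within 1 kb and 14 anti-FLAG against 3 IgG tags within 500 bp. Mcm3 had 27 anti-FLAG against 18 IgG tags within 1 kb and 15 anti-FLAG against 3 IgG tags within 500 bp, so most of its IgG tags lay further out. Mcm6 had 32 anti-FLAG against 19 IgG tags within 1 kb and 18 anti-FLAG against 9 IgG tags within 500 bp. The differences between these subunit genes were not tested.

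Of the genes of the origin recognition complex Orc1 was higher, and those of its partner subunits did not pass within 1 kb. The differences between them were not tested. Orc2 had 25 anti-FLAG against 19 IgG tags within 1 kb and 13 anti-FLAG against 6 IgG tags within 500 bp. Orc3 had 24 anti-FLAG against 11 IgG tags within 1 kb and 14 anti-FLAG against 4 IgG tags within 500 bp, around a TSS 13 bp from that of Rars2. Orc6 had 15 anti-FLAG against 7 IgG tags within 1 kb and 7 anti-FLAG against 2 IgG tags within 500 bp. These counts leaned to the anti-FLAG library without reaching the threshold. Orc4 had 22 anti-FLAG against 10 IgG tags within 1 kb and 10 anti-FLAG against 5 IgG tags within 500 bp. The transcript of Orc4 with the longest coding sequence begins 1001 bp downstream of the gene's 5′ end, and around that start there were 28 anti-FLAG against 11 IgG tags, which passed (adjusted exact p = 0.0278). Mbd5, a protein-coding gene read the other way, starts 767 bp downstream of the 5′ end of Orc4, where the densest 300 bp of anti-FLAG tags around Orc4 were centred at 820 bp, so the tags cannot be assigned to 1 of these genes. Orc5 had the lowest ratio of the licensing group, with 26 anti-FLAG against 21 IgG tags within 1 kb (ratio 1.25, 0.674 to 2.33, adjusted exact p = 0.588) and 18 anti-FLAG against 12 IgG tags within 500 bp (adjusted exact p = 0.322).

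**Figure D4:**
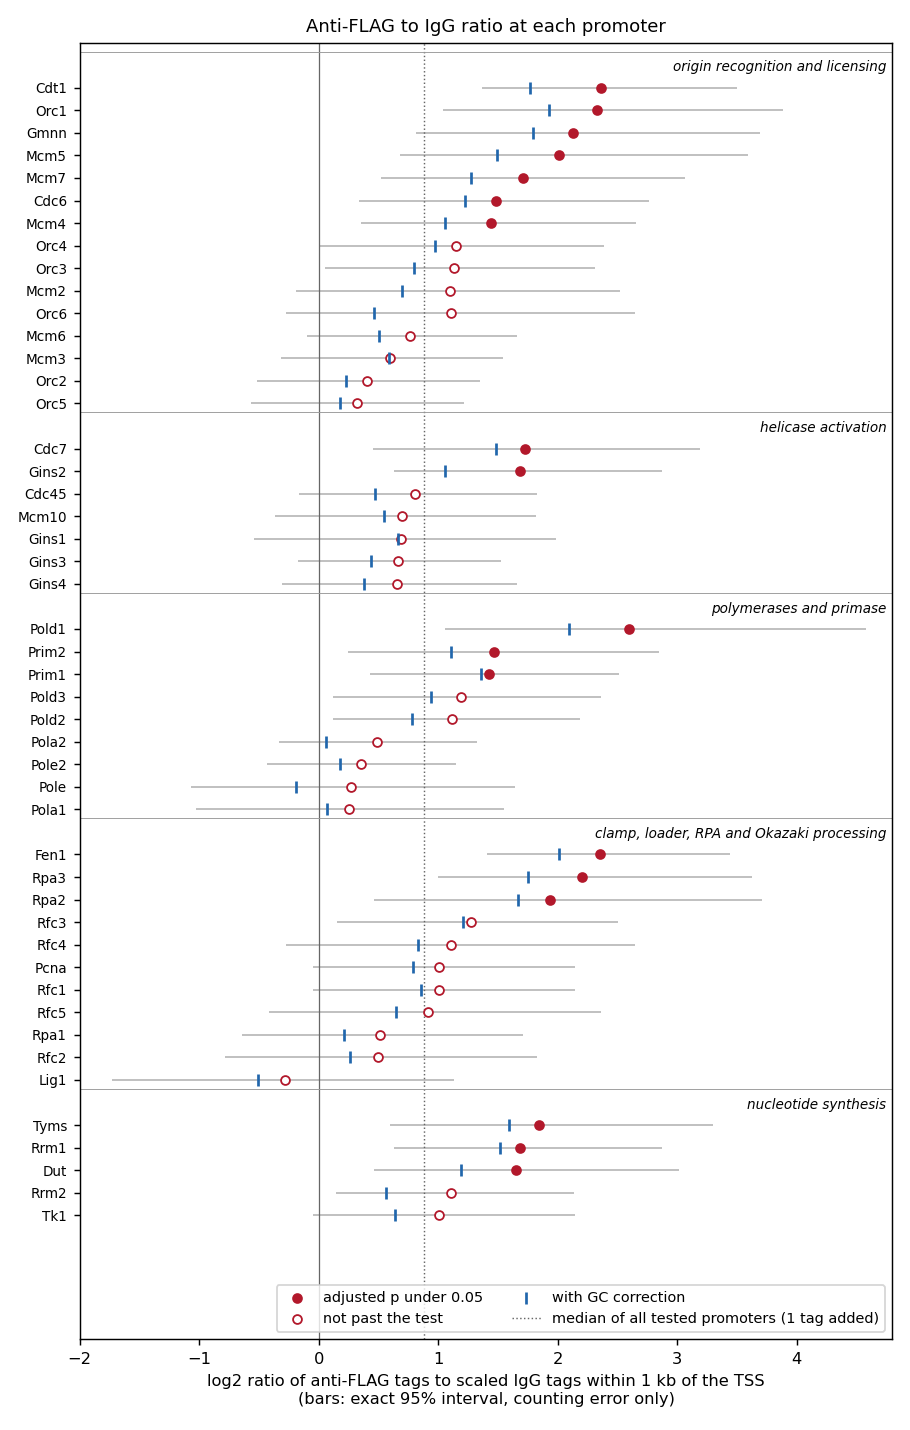
Log2 ratio of anti-FLAG tags to scaled IgG tags within 1 kb of the TSS of each gene, grouped by role, with exact 95% intervals as grey bars that cover counting error only. Points are ratios of the counts themselves. Filled red points passed the exact test (18 of 47), blue ticks show the ratio with the GC correction, the solid line marks 0 and the dotted line the median of all tested promoters (0.88, with 1 tag added).

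Of the 7 genes that act when the helicase is switched on, Cdc7 and Gins2 were higher within 1 kb, and the group median log2 ratio of 0.66 was the lowest of the 5 roles. The gene of a GINS subunit, Gins2 (ENSMUSG00000031821.5, TSS at 123113204 of chromosome 8), had 32 anti-FLAG against 10 IgG tags within 1 kb (ratio 3.22, 1.54 to 7.34, adjusted exact p = 0.00623) and 21 anti-FLAG against 5 IgG tags within 500 bp (ratio 4.22, 1.55 to 14.3, adjusted exact p = 0.00491). Cdc7, the kinase that phosphorylates the loaded helicase, had 23 anti-FLAG against 7 IgG tags (ratio 3.30, 1.37 to 9.12, adjusted exact p = 0.0182) and 9 anti-FLAG against 3 IgG tags within 500 bp. The other GINS subunit genes did not pass within 1 kb. Gins3 had 33 anti-FLAG against 21 IgG tags there and passed within 500 bp, with 21 anti-FLAG against 7 IgG tags (ratio 3.02, 1.24 to 8.40, adjusted exact p = 0.0172). Gins1 had 16 anti-FLAG against 10 IgG tags within 1 kb and 11 anti-FLAG against 6 IgG tags within 500 bp. Gins4 had 25 anti-FLAG against 16 IgG tags within 1 kb and 13 anti-FLAG against 6 IgG tags within 500 bp, the lowest log2 ratio of this group within 1 kb (ratio 1.57, 0.807 to 3.15, adjusted exact p = 0.266). Cdc45 joins GINS and the Mcm ring in the active helicase. It had 26 anti-FLAG against 15 IgG tags within 1 kb and 18 anti-FLAG against 11 IgG tags within 500 bp, and in the 500 bp centred on the TSS 9 anti-FLAG against 9 IgG tags, the highest IgG count of the set there. Mcm10, which helps to activate the helicase, had 21 anti-FLAG against 13 IgG tags within 1 kb and 12 anti-FLAG against 8 IgG tags within 500 bp, and 3 anti-FLAG against 3 IgG tags in those central 500 bp.

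Polymerase and primase promoters held both the highest log2 ratio of the set and some of the lowest. The gene of the catalytic subunit of polymerase delta, which copies the lagging strand, Pold1 (ENSMUSG00000038644.8, TSS at 51804219 of chromosome 7), had 24 anti-FLAG against 4 IgG tags (ratio 6.03, 2.07 to 23.9, adjusted exact p = 0.00221) and 17 anti-FLAG against 1 IgG tags within 500 bp. In the 500 bp centred on its TSS there were 14 anti-FLAG against 0 IgG tags. Both primase genes, whose products lay down RNA primers, were higher within 1 kb. Prim1 had 32 anti-FLAG against 12 IgG tags (ratio 2.68, 1.34 to 5.72, adjusted exact p = 0.0150) and 21 anti-FLAG against 8 IgG tags within 500 bp (ratio 2.64, 1.12 to 6.89, adjusted exact p = 0.0297). Prim2 had 22 anti-FLAG against 8 IgG tags (ratio 2.77, 1.19 to 7.19, adjusted exact p = 0.0385) and 8 anti-FLAG against 3 IgG tags within 500 bp. The protein-coding gene 1700001G17Rik, read the other way, starts 57 bp upstream of Prim2, so these tags cannot be assigned to Prim2 alone. Prim1 had the lowest GC content of the set, 43.7%, and its log2 ratio was 1.29 after the GC correction and 1.35 before it, although it then missed the threshold (adjusted exact p = 0.0778). Genes of accessory subunits of polymerase delta passed within 500 bp but not within 1 kb. Pold2 had 28 anti-FLAG against 13 IgG tags within 1 kb (adjusted exact p = 0.0589) and 15 anti-FLAG against 5 IgG tags within 500 bp (ratio 3.02, 1.04 to 10.6, adjusted exact p = 0.0428). Pold3 had 25 anti-FLAG against 11 IgG tags within 1 kb (adjusted exact p = 0.0594) and 18 anti-FLAG against 5 IgG tags within 500 bp (ratio 3.62, 1.30 to 12.5, adjusted exact p = 0.0149). Genes of polymerase alpha, which extends the primers, and epsilon, which copies the leading strand, did not pass within 1 kb. Within 500 bp Pola2 and Pole2 did not pass, and Pola1 and Pole had under 20 tags and were not tested. Pola2 had 32 anti-FLAG against 23 IgG tags within 1 kb and 20 anti-FLAG against 11 IgG tags within 500 bp. Pole had 12 anti-FLAG against 10 IgG tags within 1 kb and 5 anti-FLAG against 3 IgG tags within 500 bp. Pole2 came nearest, with 33 anti-FLAG against 26 IgG tags within 1 kb and 25 anti-FLAG against 12 IgG tags within 500 bp (adjusted exact p = 0.0528 at the smaller width). Pola1, the catalytic subunit of polymerase alpha on chromosome X, had the lowest ratio of the group, with 13 anti-FLAG against 11 IgG tags within 1 kb (ratio 1.19, 0.491 to 2.93, adjusted exact p = 0.774) and 6 anti-FLAG against 7 IgG tags within 500 bp.

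In the group of the clamp, its loader, single-strand binding and Okazaki fragment processing, Fen1, Rpa2 and Rpa3 were higher within 1 kb and the median log2 ratio was 0.95. The gene of the flap endonuclease that trims Okazaki fragments, Fen1 (ENSMUSG00000024742.7, TSS at 10278659 of chromosome 19), had the highest anti-FLAG counts of the set at 1 kb and 500 bp. There were 56 anti-FLAG against 11 IgG tags within 1 kb (ratio 5.12, 2.65 to 10.8, adjusted exact p = 8.55e-06) and 28 anti-FLAG against 2 IgG tags within 500 bp (ratio 14.1, 3.55 to 122, adjusted exact p = 2.37e-05). GC-corrected, the adjusted exact p was 0.00242 within 1 kb and 0.00282 within 500 bp, the smallest of the set at each width. The densest 300 bp lay upstream, centred 440 bp before the TSS with 18 anti-FLAG against 2 IgG tags. A further protein-coding gene, 1810006K21Rik, starts 155 bp downstream on the other strand. The transcript of Fen1 with the longest coding sequence begins 3091 bp downstream of the gene's 5′ end, and within 1 kb of that start there were 10 anti-FLAG against 5 IgG tags, under the tag minimum.

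Replication protein A coats single-stranded DNA, and the genes of its smaller subunits were higher within 1 kb. Rpa3 had 32 anti-FLAG against 7 IgG tags (ratio 4.60, 1.99 to 12.3, adjusted exact p = 0.00127) and 19 anti-FLAG against 3 IgG tags within 500 bp (ratio 6.37, 1.88 to 33.6, adjusted exact p = 0.00241). The protein-coding gene Gm16039, read the other way, starts 115 bp upstream of Rpa3, so these tags cannot be assigned to Rpa3 alone. Rpa2 had 19 anti-FLAG against 5 IgG tags (ratio 3.82, 1.38 to 13.1, adjusted exact p = 0.0206), and within 500 bp 15 anti-FLAG against 0 IgG tags, under the tag minimum. Rpa1, the largest subunit, had 17 anti-FLAG against 12 IgG tags within 1 kb and 8 anti-FLAG against 4 IgG tags within 500 bp. It did not pass within 1 kb and was under the tag minimum within 500 bp. The differences between the subunit genes were not tested. Among genes of the clamp loader, which places the clamp on primed DNA, Rfc3 passed within 500 bp. It had 24 anti-FLAG against 10 IgG tags within 1 kb (adjusted exact p = 0.0526) and 19 anti-FLAG against 2 IgG tags within 500 bp (ratio 9.56, 2.31 to 84.6, adjusted exact p = 8.83e-04). With the GC correction the adjusted exact p of Rfc3 was 0.177 within 1 kb and 0.0122 within 500 bp. Rfc1 had 24 anti-FLAG against 12 IgG tags within 1 kb and 13 anti-FLAG against 2 IgG tags within 500 bp. Rfc4 had 15 anti-FLAG against 7 IgG tags within 1 kb and 8 anti-FLAG against 3 IgG tags within 500 bp. Rfc1, Rfc2, Rfc4 and Rfc5 did not pass within 1 kb, and within 500 bp they had under 20 tags and were not tested. With a minimum of 10 tags within 500 bp, Rfc1 and Rfc5 were higher and Rfc2 and Rfc4 were not. Rfc1 and Rfc5 reached that minimum only with their anti-FLAG tags, so these calls are not read as results either. Rfc5 had 15 anti-FLAG against 8 IgG tags within 1 kb and 13 anti-FLAG against 3 IgG tags within 500 bp. Rfc2 had 14 anti-FLAG against 10 IgG tags within 1 kb and 8 anti-FLAG against 8 IgG tags within 500 bp. Pcna, the sliding clamp itself, had 24 anti-FLAG against 12 IgG tags within 1 kb and 14 anti-FLAG against 5 IgG tags within 500 bp. It did not pass within 1 kb and was under the tag minimum within 500 bp. Lig1, the ligase that seals Okazaki fragments, had 9 anti-FLAG against 11 IgG tags within 1 kb and 6 anti-FLAG against 5 IgG tags within 500 bp, the lowest ratio of all 47 at 1 kb (ratio 0.823, 0.301 to 2.18, adjusted exact p = 0.898). Its value depends on the start chosen: the transcript of longest coding sequence begins 1543 bp after the gene's 5′ end, and around that start Lig1 had 16 anti-FLAG against 4 IgG tags (log2 ratio 1.77, adjusted exact p = 0.0292). Another protein-coding gene, 6330408A02Rik, starts 1438 bp downstream of the 5′ end of Lig1 on the other strand, so these tags cannot be assigned to Lig1 alone.

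Nucleotide synthesis genes had the highest group median log2 ratio, 1.54, and 3 of the 5 were higher within 1 kb, against 29.7% of all tested promoters. The gene of the large subunit of ribonucleotide reductase, which turns ribonucleotides into deoxynucleotides, Rrm1 (ENSMUSG00000030978.9, TSS at 109590209 of chromosome 7), had 32 anti-FLAG against 10 IgG tags (ratio 3.22, 1.54 to 7.34, adjusted exact p = 0.00623) and 22 anti-FLAG against 6 IgG tags within 500 bp (ratio 3.69, 1.45 to 11.1, adjusted exact p = 0.00707). Rrm2, the small subunit, had 30 anti-FLAG against 14 IgG tags within 1 kb (adjusted exact p = 0.0520) and 15 anti-FLAG against 3 IgG tags within 500 bp. Tyms, thymidylate synthase, had 25 anti-FLAG against 7 IgG tags (ratio 3.59, 1.51 to 9.84, adjusted exact p = 0.0102). Its tags lay off the TSS, with 7 anti-FLAG against 3 IgG tags within 500 bp and the densest 300 bp centred 840 bp downstream. Dut, which keeps uracil out of DNA by breaking down dUTP, had 25 anti-FLAG against 8 IgG tags (ratio 3.14, 1.37 to 8.06, adjusted exact p = 0.0165) and 17 anti-FLAG against 2 IgG tags within 500 bp. Tk1, thymidine kinase, had 24 anti-FLAG against 12 IgG tags within 1 kb and 13 anti-FLAG against 4 IgG tags within 500 bp, the lowest ratio of this group at 1 kb (ratio 2.01, 0.968 to 4.41, adjusted exact p = 0.109).

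Discrete regions of anti-FLAG surplus, called over the whole genome in 500-bp windows, overlapped the 2 kb around the TSS of 13 of the 47 genes, 27.7%, where 7.34% of all protein-coding promoters, with or without enough tags to test, overlapped one. With the libraries swapped 0 of 47 did, and 0.00895% of all. The 13 were Orc1, Cdc6, Cdt1, Gmnn, Mcm2, Mcm5, Gins2, Gins3, Prim1, Pold1, Pold3, Fen1 and Rrm1. With the GC correction Orc1, Cdc6, Cdt1, Pold1, Fen1 and Rrm1 kept a region, 6 of 47 against 2.99%. The region of smallest p was at Fen1 (chromosome 19, 10278251 to 10279500), whose best window held 22 anti-FLAG against 2 IgG tags and 8.20 times the largest background estimate (Poisson p = 1.87e-13, one-sided and exact). That of Orc1 (chromosome 4, 108251251 to 108252250) had 18 anti-FLAG against 2 IgG tags, and that of Pold1 (chromosome 7, 51804001 to 51804750) 15 anti-FLAG against 0 IgG tags. Away from promoters, a further 6 regions overlapped gene bodies of the set or lay up to about 10 kb upstream. Pola2 had 1 in its gene body and 1 overlapping its end, centred 18956 and 23706 bp after the TSS (22 anti-FLAG against 0 IgG tags and 17 anti-FLAG against 2 IgG tags in the strongest windows), although its promoter did not pass. Mcm2 had 1 in its body and 1 upstream, and Pold1 and Rpa2 had 1 upstream each. Over the genome 5941 regions were called, and how many of all genes had one away from the promoter was not counted.

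Past the promoter, the gene bodies of the set showed no surplus in sum, with 6784 anti-FLAG and 6886 IgG tags from 1 kb after the TSS to the gene's end, a ratio of 0.991 (0.958 to 1.02). The surroundings differed between genes. Between 5 and 50 kb either side of the TSS the ratio was 1.14 over the set and ran from 0.749 at Pola1, 0.771 at Orc4 and 0.825 at Orc1 up to 1.63 at Cdt1, 1.66 at Gins2 and 1.73 at Pold2. The promoter surplus of Orc1 thus stood in a neighbourhood with fewer anti-FLAG than IgG tags, and those of Cdt1 and Gins2 in one with more. When IgG tags were scaled by these neighbourhoods instead of library totals, 13 members were higher within 1 kb, against a background of 16.7%, Cdt1, Orc1, Fen1, Gmnn, Rpa3 and Rrm1 among them, Orc4 passed in addition, and Gins2, Mcm5, Mcm7, Cdc6, Cdc7 and Prim2 no longer did.

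A neighbouring TSS lay within 2 kb of 19 of the 47, so tags there cannot be assigned to 1 gene. A protein-coding one lay within 2 kb of 14, of which 6 were higher within 1 kb, against 12 of the 33 with none. Of all tested promoters 29.7% were higher, and the difference between these groups was not tested. Both strands contributed tags: 46 of the 47 had at least 25% of their anti-FLAG tags within 1 kb on each strand, the exception being Orc4 with 22.7% on the plus strand. The densest 300 bp of anti-FLAG tags were centred within 500 bp of the TSS at 37 genes, upstream of it at 20 of these.

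Further genes of the pathway were counted in the same way. Of 55 further genes of replication and nucleotide synthesis, all found in the annotation, 51 had enough tags, and 22 were higher within 1 kb and 0 lower, 43.1% against the background of 29.7%. Their median log2 ratio over the tested promoters was 1.11. Chtf18, a clamp loader variant gene, had 18 anti-FLAG against 3 IgG tags (log2 ratio 2.26, adjusted exact p = 0.00790). Tipin, of the fork protection complex, had 27 anti-FLAG against 5 IgG tags (2.23, adjusted exact p = 0.00172) and was the one still higher with the GC correction (adjusted exact p = 0.0216). Recql4, a helicase gene, had 22 anti-FLAG against 4 IgG tags (2.21, adjusted exact p = 0.00418). The others were Topbp1, which takes part in helicase activation, the polymerase subunit genes Pold4 and Pole3, the ribonuclease H2 genes Rnaseh2a and Rnaseh2c, the clamp loader genes Dscc1 and Chtf8, and the nucleotide pathway genes Mthfd1, Ctps, Umps, Dhodh, Paics, Adsl, Adss, Tk2, Nme1, Nme2, Samhd1 and Dctpp1. Their log2 ratios ran from 1.10 for Dctpp1 to 1.96 for Nme2. Nme2 is annotated as 2 genes. The one used starts at 93817573 of chromosome 11, and the other starts 228 bp after Nme1 on the same strand, inside the window of Nme1.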

How the data were processed

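The 2 libraries were deposited by the authors as lists of mapped tags, 1 line per 36-bp tag, with no 2 lines of a library sharing position and strand. The score that the authors deposited with each tag was 512 throughout and was not used. The sources used here name no aligner, genome build or filter. Build NCBIM37 was taken from the chromosome extents, which 4 anti-FLAG and 2 IgG tags exceeded, and gene 5′ ends (TSS) from GENCODE vM1. Each tag was moved 76 bp downstream, 0.5 of the strand lag of 152 bp in the anti-FLAG library, and counted within 1 kb, 500 bp or 2.5 kb of each TSS. IgG counts were multiplied by 0.994, the ratio of library totals. Promoters whose summed count over the libraries was 20 or more were tested by a 2-sided exact conditional binomial test with Benjamini-Hochberg adjustment over all such promoters at 0.05. For log2 ratios, each count was raised by 1 tag, intervals are exact at 95%, and "at least 2-fold" means a log2 ratio of at least 1. The GC correction multiplied the expected ratio by that of 500-bp windows over 10 kb from every TSS, in strata of 2 percentage points of GC. Regions were built from 500-bp windows, spaced 250 bp apart, that held 10 or more tags, were at least 2-fold and had a Poisson p under 1e-05 over the largest of the IgG count and the 5-kb, 10-kb and genome means. The members and lists were chosen with earlier results of these data known. All members are named with both counts, and other pathway genes where they passed the test. Sequences are from NCBIM37. The test was tested on simulated data. Python 3.11.15, NumPy 2.4.6, SciPy 1.17.1, pandas 2.3.3 and Matplotlib 3.10.9 were used.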

Additional observations from a re-analysis of the deposited data

How the results depend on the processing

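The number of the 47 promoters higher within 1 kb was 18, and ran from 17 to 23 with the IgG scaling from background bins, tags not moved, starts of the longest coding sequence or other tag minimums, where 12.2 to 37.7% of all tested promoters were higher. It was 3 with the GC correction, 10 within 2.5 kb and 13 with scaling by tags 5 to 50 kb away, an alternative chosen after seeing the data. The shares of all tested promoters were 2.73%, 10.5% and 16.7% there. The further pathway genes gave 22, but 1, 14 and 12 under the same settings and shares. Within 500 bp 13 of 19 tested members were higher, against 62.4% of all, but 4 of 19 with the GC correction, against 12.8%, and 22 of 45 with a minimum of 10 tags, against 33.3%. Tags within 500 bp came mostly from the anti-FLAG library, so these shares are not read as results. The median log2 ratio within 1 kb was 1.06, but 0.73 with the GC correction, 0.61 within 2.5 kb and 0.86 with the 5 to 50 kb scaling. Within 500 bp it was 1.47, but 0.87 with the GC correction and 1.20 with 3 tags added. Promoters at least 2-fold within 1 kb numbered 27, but 17 with the GC correction and 10 within 2.5 kb. The ratio at the TSS was 6.10, but 3.28 with the GC correction. Regions lay at 13 promoters, but at 7 with p under 1e-07, 6 with the GC correction and 0 with the libraries swapped. The log2 ratio changed sign at Lig1 (1.77 at the start of the longest coding sequence, 0.29 within 2.5 kb and 0.23 within 500 bp), Gins1 (-0.048 at that start and -0.041 within 2.5 kb), Orc6 (-0.10 within 2.5 kb), Pola1 (-0.18 within 500 bp), Pola2 (-0.066 with the 5 to 50 kb scaling) and Pole (-0.21 with the GC correction). The cause was not tested. Depth limits single promoters, where counts had a median of 25 in the anti-FLAG and 10 in the IgG library and intervals were wide. No paired analysis was possible because there was 1 library per antibody.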
